A study of Caenorhabditis elegans with 10 samples.

Results

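The numbered cuticle collagen genes of Caenorhabditis elegans, protein-coding genes whose symbol is col- followed by a number, were examined under DamID-seq peaks of the heterochromatin proteins HPL-1 and HPL-2. RefSeq's annotation of WBcel235, from which they were chosen by symbol, held 156 of them among 19971 protein-coding genes on the 6 chromosomes. Any overlap of 1 bp or more between a peak and the gene body counted as binding. HPL-2 in the intestine lay over 72 col genes, HPL-1 in the intestine over 15 and HPL-2 in the hypodermis over 8.

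All 10 libraries were made from 200 ng of genomic DNA of L4 larvae, kept for 48 h at 20 °C. HPL-1::Dam was present in the intestine of strain MRS579, HPL-2::Dam in the intestine of MRS580 and HPL-2::Dam in the hypodermis of MRS578, with 2 libraries each. GFP::Dam in the intestine (BN1051) and in the hypodermis (BN561), also with 2 libraries each, served as controls, and both intestinal fusions were set against the same control strain. Dam is a bacterial methyltransferase that marks adenines in GATC sites near the chromatin protein it is fused to, so a peak is a stretch with more marking than GFP::Dam gave in the same tissue. Neither the promoters that drove the fusions nor the read depth of a library is given in the sources used here, and a list of genomic intervals offers no way to check the tissue by marker expression. The authors averaged the libraries of a group before calling peaks. Each profile is therefore a single list without replicate values, and no difference below has a test or an error between libraries.

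Cuticle collagens are short secreted proteins built around Gly-X-Y repeats that assemble into trimers and are crosslinked into the extracellular matrix covering the animal. They are made by the hypodermis, the epidermis beneath the cuticle, in waves that accompany each larval moult, and different members serve larval, dauer and adult cuticles. The intestine, a separate tissue that digests food and makes yolk, is not known as their site of synthesis. HPL-1 and HPL-2 are the heterochromatin protein 1 homologues of the worm, which recognise histone H3 methylated at lysine 9.

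In the intestine HPL-2 lay over 72 of the 156 col genes, 46.2%, where 6.11% of all protein-coding genes were bound in the same list. The col genes made up 5.9% of the 1221 genes bound there. HPL-1 in the intestine lay over 15 col genes, 9.62%, against 4.84% of all protein-coding genes. HPL-2 in the hypodermis lay over 8, 5.13%, against 5.92% of all protein-coding genes, a share near that of genes in general. At an FDR of 0.01 or below in place of 0.05, the counts were 55 for HPL-2 in the intestine (35.3%, against 4.29% of all protein-coding genes), 9 for HPL-1 (5.77% against 2.75%) and 4 for HPL-2 in the hypodermis (2.56% against 3.79%). Counted in sequence, 23.7% of the base pairs in col gene bodies were under HPL-2 intestine peaks, against 1.69% over all protein-coding gene bodies. The shares of col sequence were 3.14% for HPL-1 in the intestine and 3.05% for HPL-2 in the hypodermis, against 0.994% and 1.89% over all genes. The col genes were short, with a median of 1220 bp, while the median protein-coding gene was 2006 bp long. Among all protein-coding genes those bound by HPL-2 in the intestine were longer, with a median of 3617 bp against 1955 bp for the others, but among col genes the bound ones had a median of 1171 bp and the others 1231 bp.

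**Figure D1:**
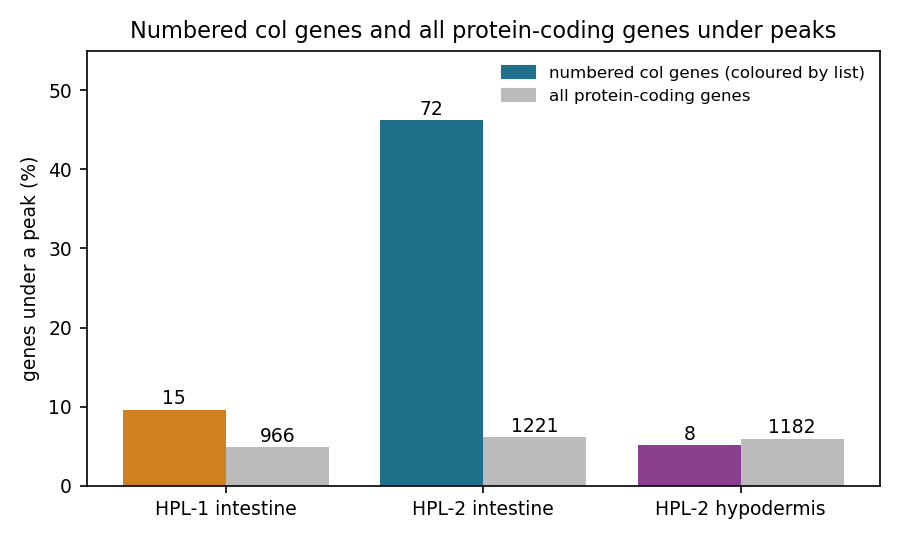
Share of genes under a peak, in percent, for the numbered col genes (coloured bars) and all protein-coding genes (grey bars) in each of the 3 peak lists, with the number of genes above each bar. The HPL-2 intestine bar for col genes stands at 46.2% beside 6.11% for all genes, while the hypodermis bars are 5.13% and 5.92%.

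Taken over the lists, 81 col genes, 51.9%, had a peak in at least 1, against 12.4% of all protein-coding genes, and the remaining 75 had none. Most of the 81 carried a peak in a single list. Intestinal HPL-2 alone lay over 60 of them, 38.5% of the family, against 3.19% of all protein-coding genes. Those 60 were 9.42% of the 637 protein-coding genes of this class. HPL-1 was alone over 7 col genes, 4.49% against 2.56% of all genes, and HPL-2 in the hypodermis over 2, 1.28% against 3.1%. HPL-2 without HPL-1 in the intestine was found over 64 of the 156 col genes (against 4.48% of all genes), HPL-1 without HPL-2 over 7 (4.49% against 3.2%) and both proteins over 8 (5.13% against 1.64%). Between the tissues, HPL-2 lay over 66 col genes in the intestine and not the hypodermis (42.3%, against 3.94% of all genes), over 2 in the hypodermis and not the intestine (1.28% against 3.74%) and over 6 in both (3.85% against 2.18%). These comparisons share the HPL-2 intestine list and are not independent. All 3 lists met at 2 col genes, 1.28% against 0.891% of all genes.

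The highest score over a col gene in both HPL-2 lists was that of col-87 (II, 14089851 to 14094690), one of the 2 col genes bound in all 3 lists. In the intestine its HPL-2 peak ran from 14090129 to 14092305 with a score of 2.68 and an FDR of 8.39e-12, the rank of 2 among 1665 peaks. Scores and FDR values are the authors' own, on a score scale that is not stated, and peaks are ranked only within 1 list. Scores of 1 gene from several lists are printed side by side but are not to be compared. The list medians differed, at 0.66 for HPL-1 in the intestine, 0.95 for HPL-2 there and 1.65 for HPL-2 in the hypodermis. In the hypodermis the same stretch carried a pair of HPL-2 peaks, from 14090129 to 14091197 with a score of 4.11, again ranked 2, of 1572, and from 14091474 to 14092305 with a score of 1.71. HPL-1 in the intestine had a peak from 14091534 to 14092305 with a score of 1.11, ranked 65 of 1346. All 3 lists thus ended at the same base inside the gene, and the 2177 bp of the intestinal HPL-2 peak contained the whole of the other intervals.

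The other gene bound in all 3 lists was col-102 (IV, 604444 to 605931). Its HPL-2 intestine peak covered 91.9% of the gene with a score of 1.67, its HPL-1 peak 43.3% with a score of 0.87 and its hypodermis peak 58.0% with a score of 1.7. The hypodermis peak was 1987 bp wide, ran on to 607055 beyond the gene, and reached inx-18, an innexin gene. The HPL-1 and hypodermis intervals met over 256 bp.

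Next to col-87, the highest HPL-2 intestine scores over col genes were those of col-72, col-102, col-111, col-80, col-181, col-96, col-103, col-45 and col-164. The peak with a score of 2.5 at col-72 (II, 3520703 to 3524197) reached into the gene by 340 bp, 9.73% of its body, and also overlapped clec-126, a C-type lectin gene. The peaks over col-96 (III, 11705652 to 11706765; score 1.49), col-103 (IV, 762413 to 763678; score 1.45) and col-164 (X, 2093469 to 2094846; score 1.38) lay wholly inside the genes and covered 74.2%, 54.8% and 54.1% of them. That over col-45 (I, 115687 to 117498; score 1.45) covered 87.8%. At col-111 (score 1.64) the peak also overlapped psr-1, at col-80 (1.51) dph-2 and at col-181 (1.5) W03G11.2. Scores over the family as a whole lay near those of the list. The 75 HPL-2 intestine peaks over col genes had scores from 0.64 to 2.68 with a median of 1.0, against 0.95 for all 1665 peaks, and 54 of the 75 had an FDR of 0.01 or below. HPL-1 scores over col genes had a median of 0.665 against 0.66 in the list, and hypodermis scores 1.7 against 1.65.

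**Figure D2:**
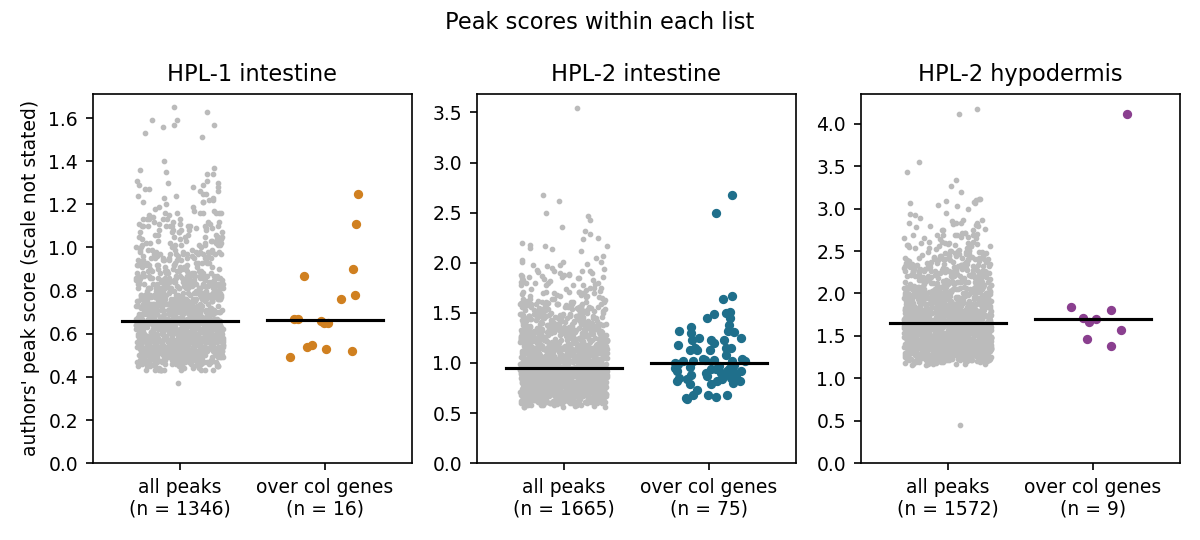
Authors' peak scores in each list (1 panel each, own vertical scale) for all peaks (grey points) and for peaks over col genes (coloured points), with medians as black lines. The medians over col genes, 0.665, 1.0 and 1.7, lie close to the list medians of 0.66, 0.95 and 1.65, and col-87 gives the highest coloured point in both HPL-2 lists.

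The intestinal HPL-2 peaks mostly had their midpoint within the col gene they overlapped. Where a gene had several peaks, the highest scoring one was used. Its midpoint fell inside the gene in 67 of the 72 bound col genes, 93.1%, against 87.7% of all 1221 bound protein-coding genes, which were longer. The median distance from this midpoint to the gene centre was 21.7% of the gene length, against 25.0% for all bound genes. With the peak covering most of the gene used instead, the value for col genes was 18.1%. Of the highest scoring peaks 37 lay wholly inside the gene, 32 crossed 1 end and 3, over col-77, col-80 and col-175, spanned it entirely. Peaks covered a median of 56.8% of a bound col gene (interquartile range 38.5% to 77.3%), against 17.8% of a bound gene in general. Median peak widths were close, at 836 and 715 bp, but median gene lengths were 1171 and 3617 bp. A peak of a given width covers more of a short gene, which bears on this comparison and on the next. At least 50% of the body was covered in 41 col genes, 26.3% of the family, where 1.09% of all protein-coding genes were covered to that extent. Of the 75 peaks, 50 overlapped no other protein-coding gene, 22 overlapped a gene that is not a col gene, and the other 3 overlapped a second col gene. The strand of the genes was not used here, so these positions do not separate the start of a gene from its end.

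**Figure D3:**
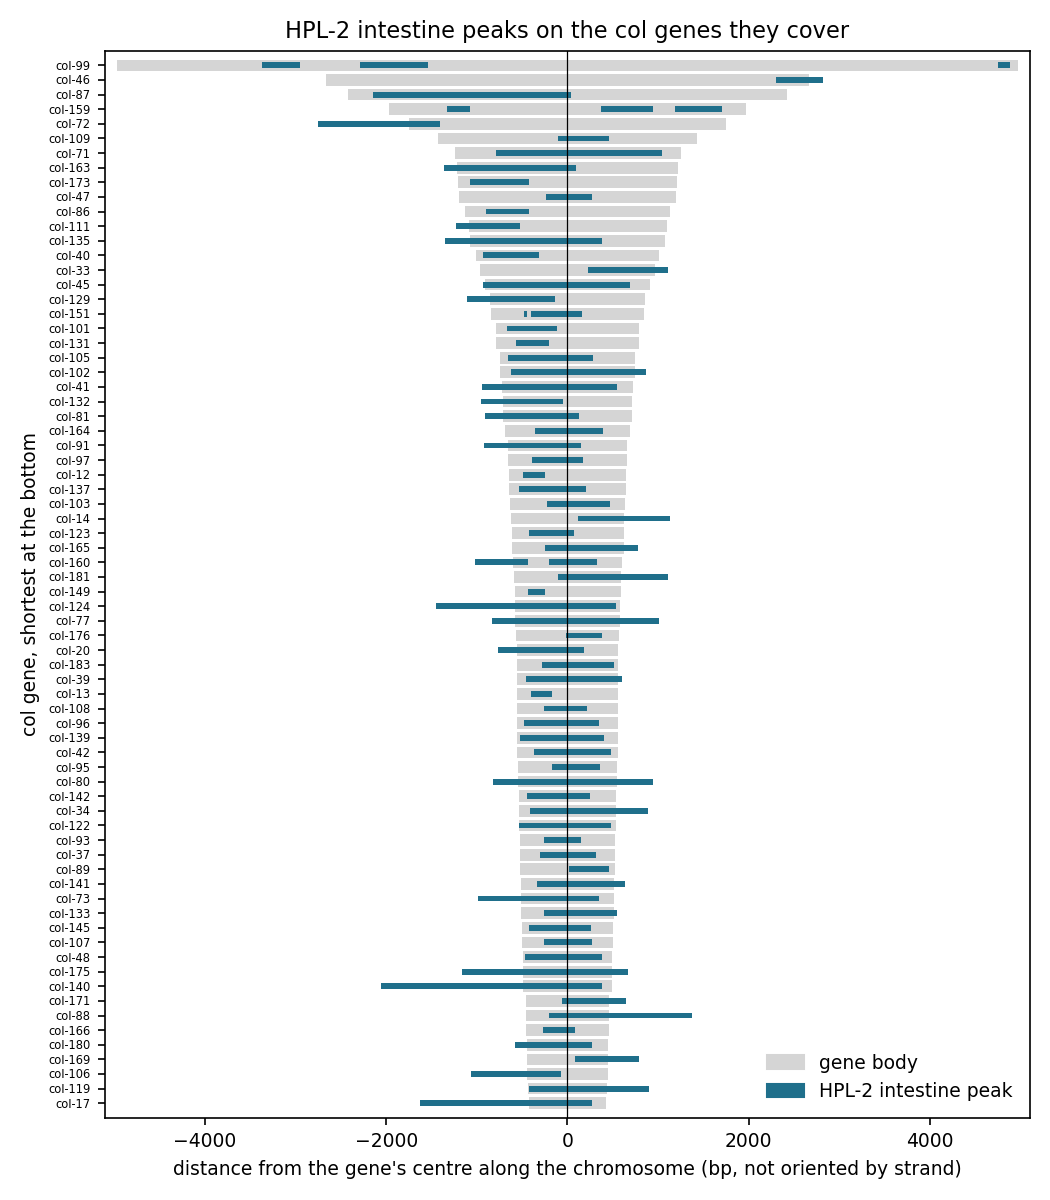
HPL-2 intestine peaks (blue) drawn on the 72 col genes they overlap (grey), each centred on its gene and ordered by gene length; the horizontal axis is the distance from the gene's centre in bp, not oriented by strand. In 67 genes the midpoint of the highest scoring peak falls inside the gene, and 3 peaks extend past both ends.

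The edge of the calling rule touched few genes for HPL-2 in the intestine. The smallest overlaps were 181 bp at col-149 and 235 bp at col-12, and among unbound col genes a single one, col-79, had an HPL-2 intestine peak within 1 kb, 431 bp away. The other unbound col genes lay farther from a peak. HPL-1 peaks lay close to more genes that they did not overlap. The smallest HPL-1 overlap was 36 bp at col-3, and 9 unbound col genes had an HPL-1 peak within 1 kb. They were col-72 at 34 bp, col-159 at 65 bp, col-117 at 73 bp, col-119 at 133 bp, col-145 at 399 bp, col-10 at 584 bp, col-141 at 618 bp, col-132 at 662 bp and col-39 at 853 bp. Counting genes with a peak over the body or within 1 kb, HPL-1 had 24 col genes in place of 15 (15.4%, against 6.93% of all genes), and HPL-2 had 73 in place of 72 in the intestine (46.8% against 8.31%) and 10 in place of 8 in the hypodermis (6.41% against 8.1%). In the hypodermis the smallest overlaps were 246 bp at col-65 and 453 bp at col-72, and col-111 at 473 bp and col-105 at 796 bp lay within 1 kb of a peak.

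HPL-1 covered less of the col genes it overlapped than HPL-2 did in the intestine. Peaks covered a median of 28.1% of the 15 col genes, against 14.4% of a gene bound by HPL-1 in general. The median lengths of these genes were 1231 and 3338 bp. At least 50% of the body was covered in 2 col genes (1.28% of the family, against 0.631% of all genes). The midpoint of the highest scoring peak lay inside 10 of the 15, 66.7%, against 84.0% of all 966 bound genes. The highest score, 1.25, belonged to a peak between col-117 and col-3 (IV, 8824783 to 8826013) that entered col-3 by its last 36 bp. After col-87 followed col-94 (score 0.9), then col-102 (0.87), col-99 (0.78) and col-144 (0.76). At col-94 300 bp of a peak of 1153 bp lay in the gene, and the peak also overlapped dhc-4. The remaining HPL-1 genes were col-103 and col-80 (0.67 each), col-91 (0.66), col-142 and col-168 (0.65 each), col-79 (0.55), col-48 (0.54), col-113 (0.52) and col-153 (0.49). Of these, col-80 was spanned entirely and col-91 was covered by a pair of peaks. Of the 16 HPL-1 peaks over col genes, 6 also overlapped a gene that is not a col gene. Besides dhc-4, these genes were mek-2 at col-48, dph-2 at col-79 and col-80, and ncr-2 at col-91.

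At the 8 col genes that both proteins bound in the intestine the intervals lay on the same sequence. The HPL-1 peak lay wholly within HPL-2 peaks at col-48 (476 bp), col-87 (772 bp), col-99 (529 bp), col-102 (645 bp), col-103 (262 bp) and col-142 (393 bp). At col-80 the intervals of 1735 and 1760 bp shared 1690 bp. At col-91 the overlap was 903 bp. An end of the HPL-1 interval coincided with an end of an HPL-2 interval at col-48, col-87, col-91, col-99 and col-103. Peak ends follow GATC fragments and both lists were set against the same control strain. The 7 genes with HPL-1 alone were col-3, col-79, col-94, col-113, col-144, col-153 and col-168.

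In the hypodermis HPL-2 lay over col-65, col-71, col-72, col-87, col-102, col-118, col-135 and col-181. Of the 8, 6 were also bound in the intestine, and col-65 (I, 11489158 to 11490578; score 1.84) and col-118 (IV, 8848218 to 8849673; score 1.38) were not. At col-71 (scores 1.25 in the intestine and 1.8 in the hypodermis) the intervals of the tissues shared 1335 bp and at col-135 (1.13 and 1.66) 1350 bp. At col-181 (1.5 and 1.57) they met over 55 bp near the middle of the gene. At col-72 the peaks of the tissues did not meet, since the intestinal one entered the gene at its low-coordinate end and the hypodermal one, with a score of 1.46, at the other. Of the 8 genes 7 lay in the outer parts of chromosomes, as did 1039 of the 1182 protein-coding genes bound in this list. The 7 were 9.33% of the outer col genes, against 8.36% of all genes there. None belonged to a tandem group, and 106 of the 156 col genes are outside such groups. Peaks covered at least 50% of 2 of the 8, 1.28% of the family, against 1.42% of all genes.

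Many col genes lie side by side. With no more than 5 kb between gene ends, 50 of the 156 formed 21 tandem groups of 2 to 5 genes. Intestinal HPL-2 lay over 22 of these 50, 44.0%, and over 50 of the 106 genes that stood alone, 47.2%. In the same list 6.11% of all protein-coding genes were bound. HPL-1 lay over 7 of the 50, a larger share than its 8 of the 106, 7.55%. Among all protein-coding genes HPL-1 lay over 4.84%. Neighbours did not always share the state. In 5 groups every gene was under an HPL-2 intestine peak, in 8 some were and in 8 none was. Of the 29 pairs of adjacent genes, 8 had both genes bound, 12 had 1 and 9 had neither. How often adjacent protein-coding genes in general share the state was not counted. With 46.2% of the family bound, shared and mixed states would occur among unlinked genes too. These counts are therefore not read as a pattern among neighbours. The fully bound groups and pairs include col-46 with col-47 and col-159 with col-160, whose gene models overlap and share peaks. They also include col-13 with col-12, where the copy that is bound is uncertain, as described below.

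Of the groups, 3 had 3 genes bound in some list. In the first, col-17, col-20 and col-73 (II, 4866723 to 4873129) each carried an HPL-2 intestine peak of its own, with scores of 1.08, 1.02 and 0.92 and with 81.6%, 66.5% and 83.9% of the gene covered. Neither of the other lists had a peak over them. In the second, col-79, col-39 and col-80 (II, 10703613 to 10708287), HPL-2 in the intestine lay over col-39 (score 0.96, 91.0% covered) and col-80 (1.51, 100.0%), and HPL-1 over col-79 (0.55) and col-80 (0.67). The gene dph-2 overlapped this group, and the peaks there lay over it as well. The third, col-167 to col-171 on X (6323488 to 6335221), is an array of 5 genes of 903 to 924 bp. Intestinal HPL-2 lay over col-169 (score 0.84) and col-171 (0.88) with intervals of 713 and 708 bp, each extending past the high-coordinate end of its gene. HPL-1 had an interval of 699 bp at col-168 (0.65), which entered the gene by 109 bp at its high-coordinate end. No list had a peak over col-167 or col-170. Whether these genes are alike enough in sequence to share reads was not examined, and the handling of such reads is not given. Which of the 5 are bound is uncertain to that extent.

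Some col genes cannot be separated with certainty. The pair col-13 and col-12 (V, 10420788 to 10425198), which are known to encode nearly identical collagens, carried HPL-2 intestine peaks of the same width, 235 bp, starting 155 bp and 163 bp from the low-coordinate ends of the genes, with scores of 0.96 and 0.87. Among the highest scoring peaks per gene, this was the one pair of equal width over different col genes of a chromosome in any of the lists. The sources used here do not say how reads that match several places were treated, so the binding of these genes is uncertain as to which copy it belongs to. The gene models of col-46 and col-47 overlap, as do those of col-159 and col-160, and each pair shares peaks. With genes under the same peak counted once, HPL-2 in the intestine had 70 col genes in place of 72.

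**Figure D4:**
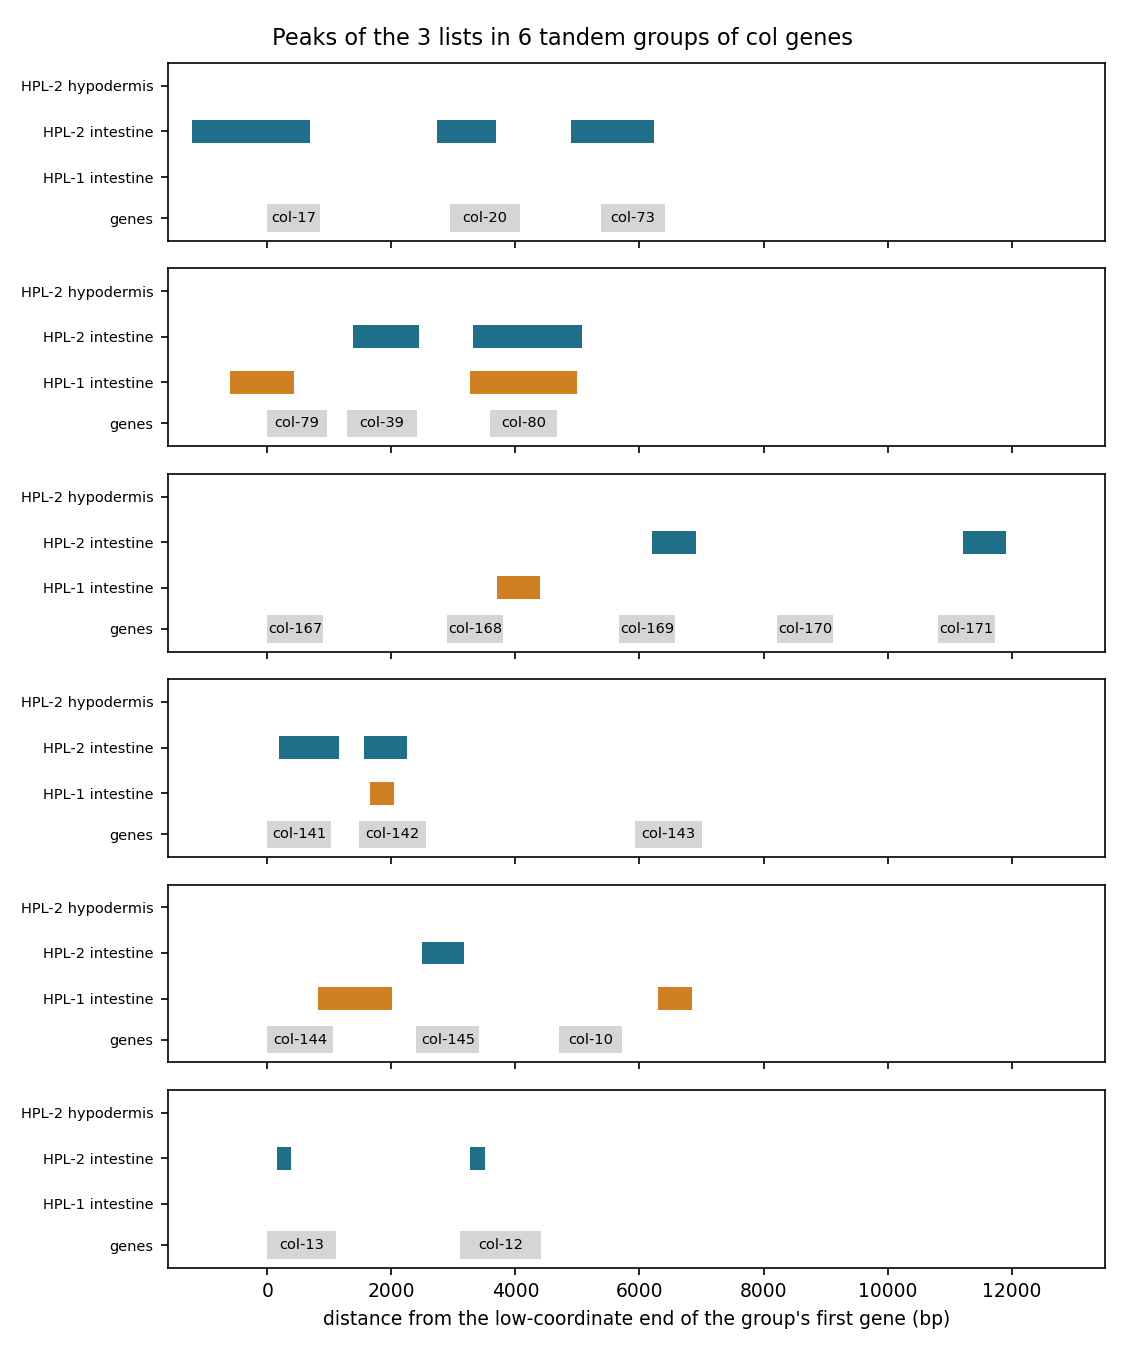
Genes (grey) and peaks of the 3 lists (coloured) in 6 tandem groups of col genes; the horizontal axis is the distance in bp from the low-coordinate end of the first gene of each group. Each of col-17, col-20 and col-73 has its own HPL-2 intestine peak, the peaks of col-13 and col-12 have equal widths of 235 bp, and the hypodermis row is empty in all 6 groups.

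Col genes of known stage or role were bound in the intestine in some cases and not in others. The adult cuticle collagen genes col-19 (X, 421707 to 422691), a standard marker of the larval to adult transition, and col-7 (I, 7401132 to 7402761) had no peak in any list, and the nearest HPL-2 intestine peaks lay 80586 and 17114 bp away. The larval gene col-17 had an HPL-2 intestine peak with a score of 1.08. The dauer gene col-2 (IV, 10084439 to 10085451) had none, with the nearest HPL-2 intestine peak at 130129 bp. Of the genes whose promoters are widely used to drive expression in the hypodermis, col-12, which is transcribed late in each moulting cycle, was under an HPL-2 intestine peak. That peak had an FDR of 0.0123, and it is uncertain, as said above, whether it belongs to col-12 or col-13. For col-10 the nearest HPL-2 intestine peak lay at 1538 bp.

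Of the genes linked to the extracellular matrix in long-lived worms, col-144 was bound by HPL-1 alone (score 0.76), and col-10 and col-120 had no peak over them. In the tandem group of col-144, col-145 and col-10 (V, 9159586 to 9165307), the HPL-2 intestine peak, with a score of 0.99, lay inside the middle gene, and HPL-1 peaks lay beside it at col-144 and beyond col-10. The 3 listed targets of BMP signalling, the pathway that sets body size, were among the 46.2% of col genes under HPL-2 in the intestine. The scores were 0.9 at col-41 (X, 15175032 to 15176481), 1.02 at col-141 and 1.15 at col-142, with 87.9%, 82.1% and 64.4% of the genes covered. At col-142 HPL-1 was present too. The longest gene of the family, col-99 (IV, 137974 to 147919), encodes a transmembrane collagen and is no cuticle collagen. It had 3 HPL-2 intestine peaks, with scores of 0.89, 0.92 and 0.92, which covered 13.1% of it, and 1 HPL-1 peak. In all, with col-12 counted, HPL-2 in the intestine lay over 6 of these 12 genes, 50.0%, near the 46.2% of the whole family (6.11% of all protein-coding genes). HPL-1 lay over 3, 25.0%, against 9.62% of the family and 4.84% of all genes, and HPL-2 in the hypodermis over 0, against 5.13% and 5.92%.

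Binding varied along the chromosomes. The family lay more centrally than genes in general, with 81 of the 156, 51.9%, in the middle when each chromosome was divided into 3 equal parts, against 37.8% of all protein-coding genes. In the outer parts HPL-2 in the intestine lay over 49 of 75 col genes, 65.3%, against 8.71% of all genes there. In the middle parts, where 1.84% of all genes were bound, it lay over 23 of 81 col genes, 28.4%. These middle genes had a median score of 0.94, with col-166 (1.23), col-14 (1.15), col-37 and col-122 (1.13 each) the highest, and the outer ones a median of 1.08. The middle parts held few HPL-2 intestine peaks, and col genes took a larger share of these. Of 194 HPL-2 intestine peaks there 25 lay over a col gene, 12.9%, against 50 of 1471, 3.4%, in the outer parts. HPL-1 lay over 9 of the 75 outer col genes (against 5.56% of all genes there) and 6 of the 81 in the middle parts (7.41% against 3.65%).

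By chromosome the share of col genes under HPL-2 in the intestine was 58.3% on III, 56.1% on IV, 50.0% on II, 45.2% on V, 44.4% on X and lowest on I. Chromosome I, where 4 of 21 col genes were bound, had no bound gene among the 12 in its middle part, where 1.59% of all genes were bound. In its outer parts 4 of 9 were bound (44.4% against 13.1%). For all protein-coding genes chromosome I had instead the highest share, 8.55%, and X the lowest, 4.62%. On X the col genes of the middle part were bound in 7 of 15 cases (46.7%, against 3.28% of all genes there). Those of the outer parts were bound in 5 of 12 (41.7% against 5.36%). The lower share of col genes in the middle parts seen on I, II, III, IV and V was thus not seen on X, although all genes of X showed it. On III it rests on few genes, 2 of 4 in the middle part and 5 of 8 in the outer parts. On V, where 24 of 31 col genes lie in the middle part, 8 of the 24 were bound (33.3%, against 1.39% of all genes there). Of the outer 7 on V, 6 were bound (85.7% against 6.6%).

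**Figure D5:**
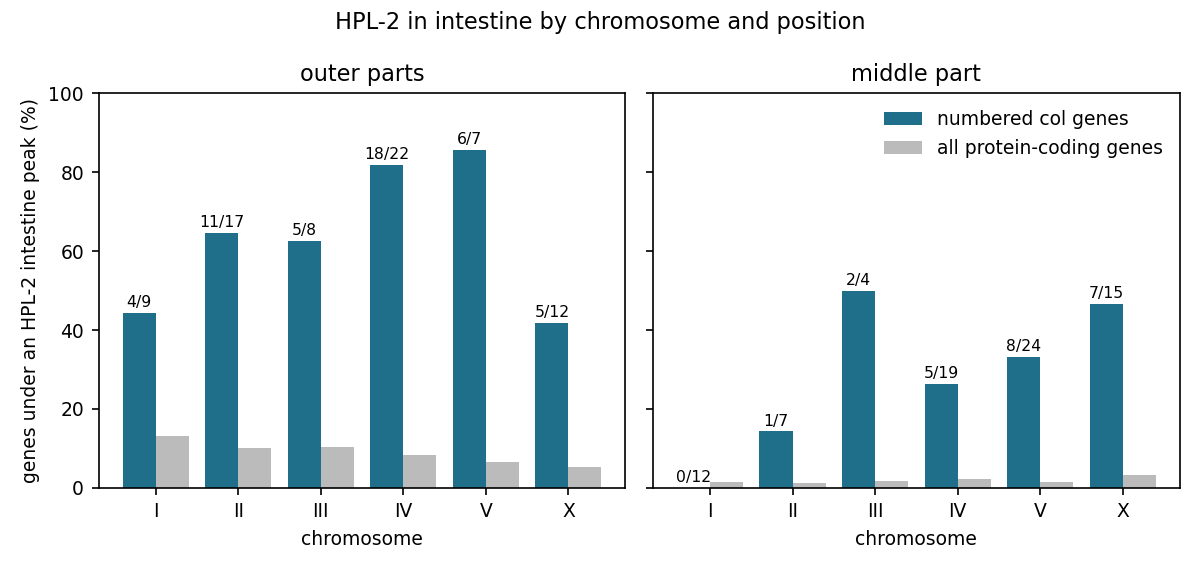
Share of genes under an HPL-2 intestine peak, in percent, for col genes (blue, with the counts above) and all protein-coding genes (grey), by chromosome in the outer parts and in the middle part. The col bars run from 41.7% on X to 85.7% on V in the outer parts, and from 0 of 12 on I to 50.0% on III in the middle.

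The genes around bound col genes had a similar share of peaks to the neighbours of other bound genes. On each side of the 72 bound col genes the nearest protein-coding gene that is not a col gene was taken, and 37 of these neighbours, 25.7%, were under an HPL-2 intestine peak. Among the neighbours of all bound genes 543 of 2439 were, 22.3%. Beside unbound col genes the share was 6.55%. A neighbour under the same peak as the bound gene was counted, and 22 of the 75 peaks over col genes overlapped a gene that is not a col gene. Shared peaks thus raise the shares beside bound genes and cannot do so beside unbound ones. Position was not matched either, since 65.3% of outer col genes were bound and 28.4% of middle ones. The distance from an HPL-2 intestine peak over a col gene to the next peak of the list had a median of 7.56 kb, against 7.68 kb for all peaks. In the middle parts it was 25.6 kb against 26.9 kb.

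The rest of the collagen pathway was counted from lists chosen with earlier results of these data known. Of 21 cuticle collagens named for the appearance of their mutants, HPL-2 in the intestine lay over 9, 42.9%, against 6.11% of all protein-coding genes. The other lists had 0, where 4.84% of all genes were bound by HPL-1 and 5.92% by HPL-2 in the hypodermis, shares at which a list this short would hold few genes. The 9 were bli-1 (score 0.8), ram-2 (1.29), sqt-1 (1.02), dpy-17 (0.62), dpy-13 (1.49), bli-6 (0.61), sqt-3 (0.98), dpy-3 (1.27) and dpy-8 (1.11). Of 14 genes for collagen processing and crosslinking, 3, 21.4%, were under HPL-2 peaks in each tissue, against 6.11% of all protein-coding genes in the intestine and 5.92% in the hypodermis. They were bli-4, a proprotein convertase gene (scores 1.82 in the intestine and 1.63 in the hypodermis), dpy-18, which encodes the catalytic subunit of prolyl 4-hydroxylase (2.01 and 1.83), and phy-3, a further prolyl 4-hydroxylase gene (0.99 and 1.55). HPL-1 lay over 2 of the 14, 14.3%, against 4.84% of all protein-coding genes. These 2 were phy-3 (0.7) and bli-3 (0.49), the dual oxidase gene that crosslinks collagen by tyrosine. Of the type IV collagen genes of basement membranes, let-2 was under HPL-2 in both tissues (1.28 in the intestine and 1.65 in the hypodermis) and emb-9 in the intestine (1.03). The collagen gene cle-1, which is not of type IV, had no peak. HPL-2 thus lay over 2 of 3 listed genes in the intestine, against 6.11% of all genes, and 1 of 3 in the hypodermis, against 5.92%. HPL-1 lay over 0 of 3, against 4.84%. A set of 3 genes is too small to be read as a share. Gene length was not allowed for in any of these sets.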

How the data were processed

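DamID-seq was carried out on 10 libraries in 5 groups of 2, grouped by the sample titles. Whether the libraries of a group are separate cultures is not stated. The authors deposited 3 peak lists, each called on an averaged profile against Dam at an FDR of 0.05, per the file names. Each peak has a start, an end, an FDR and a score, which is the deposited value of the authors on a scale that is not stated. Bowtie2 2.3.4, SAMtools 1.9, R 3.4.3 and the WBcel235/ce11 assembly are named in the submitters' processing notes. The peak caller, the depth and the handling of reads with several matches were not given in the sources used here.

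Peaks were matched by coordinates to RefSeq genes of WBcel235 with Python 3.11.15, pandas 2.3.3 and numpy 2.4.6, and the overlap code was tested on simulated data. Binding is resolved to GATC fragments, which limits peak edges, and a region with strong GFP::Dam marking is harder to call. Genes shown by name were the 10 with the highest score in each list, all genes bound by HPL-1, by HPL-2 in the hypodermis or in several lists, the bound members of the 3 tandem groups with the most bound genes, and col genes of known stage or role, besides genes named to illustrate a count after their values were seen. Members and lists were chosen with earlier results of these data known. Counts are read against the share of all protein-coding genes. No sequence was used here. The alternatives were an FDR of 0.01, other overlap rules, peaks of 500 bp, lists of 1346 peaks each, genes under 1 peak counted once, other tandem distances, and the peak covering most of a gene.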

Additional observations from a re-analysis of the deposited data

How the results depend on the processing

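No paired analysis was possible because the deposited lists are averages and hold no values per replicate, so no library could be left out either. HPL-2 in the intestine kept the highest count of col genes under every alternative run. At an FDR of 0.01 it had 55 col genes (35.3%, against 4.29% of all protein-coding genes). HPL-1 had 9 (5.77% against 2.75%), HPL-2 in the hypodermis 4 (2.56% against 3.79%) and all 3 lists together 1 (0.641% against 0.481%). With 50% of the gene body covered HPL-2 in the intestine had 41 (26.3% against 1.09%), HPL-1 2 (1.28% against 0.631%) and HPL-2 in the hypodermis 2 (1.28% against 1.42%). By this rule HPL-2 in the intestine alone had 37 (23.7% against 0.686%) and HPL-2 without HPL-1 in the intestine 39 (25.0% against 0.886%). All 3 lists had 0, against 0.0951% of all genes. A short gene reaches 50% more easily than a long one, and col genes were short. With 1 kb on either side HPL-1 had 24 col genes (15.4% against 6.93%). With the peak midpoint required in the gene the hypodermis had 5 (3.21% against 4.68%) and all 3 lists 1 (0.641% against 0.681%). The stricter rules call fewer genes by construction, and for the 1 kb window more. The remaining counts stayed within 1.5 times of those reported. With lists of equal size HPL-2 in the intestine had 66 (42.3% against 5.12%) and with peaks of 500 bp 69 (44.2% against 5.86%). Tandem groups held 44 to 50 genes, and the choice of peak per gene did not change the counts of midpoints inside genes. For HPL-2 in the intestine that choice moved the median distance from midpoint to gene centre from 21.7% to 18.1% of the length of a col gene. Without depth or replicates, a gene without a peak is not shown to lack the protein.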

Other observations

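The gene table also held 3 col pseudogenes. The one named col-66 (I, 11559446 to 11560565) was under peaks of all 3 lists, with scores of 0.79 for HPL-1 in the intestine, 1.8 for HPL-2 in the intestine and 2.35 for HPL-2 in the hypodermis. The HPL-2 intestine and HPL-1 intervals began at the same base, 11560043. The pseudogene col-136 (IV, 16551492 to 16554348) had an HPL-2 intestine peak with a score of 1.13 alone, and col-182 on X had no peak.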
